A study of Mus musculus with 10 samples.

Results

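The genes described here encode α1-antitrypsin and other proteins that liver secretes into blood, measured in the aortic arch of atherosclerosis-prone mice. They are Serpina1a, Serpina1b, Serpina1d, Serpina1e and Spi1-6 of the α1-antitrypsin family, and the plasma protein genes Ahsg, Alb, Ttr and Apoa1. Members were taken by gene symbol, and were selected on log2 ratios between the genotypes in these same arrays, so their genotype values are given as a description with no p-value. These 9 of the 11130 genes with a named probe had 1 probe each among the 13872 on the array, and 6 of the 9 probes had enough values to enter the fit of 4866 probes. The 3 others were Serpina1b, Ttr and Apoa1.

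RNA of double-null mice, which lack both apolipoprotein E and MyD88 (apoE-/-, MyD88-/-), was set against RNA of apoE-null mice (apoE-/-) on 10 two-colour arrays. Both genotypes therefore lacked apolipoprotein E, and the labels of 8 of the 10 arrays state a high fat diet of 8 weeks for both; the other 2 arrays name mice that also appear on arrays with that statement. A pair was 1 double-null and 1 apoE-null mouse, and each of 5 pairs was hybridised on 2 arrays with the dyes exchanged. Both mice were female in pair 1 and male in pairs 2 to 4, whereas in pair 5 the double-null mouse was male and the apoE-null mouse female. Ages, strain background and littermate status are not given in the labels, and mouse numbers are exchanged between the genotypes on the arrays of pair 1, where the genotype in each label was used.

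α1-Antitrypsin is a serpin, an inhibitor that traps serine proteases, above all the elastase released by neutrophils. Mice carry a cluster of closely related Serpina1 genes, and hepatocytes are the main source of the secreted protein. Albumin (Alb), transthyretin (Ttr), apolipoprotein A-I (Apoa1) and fetuin-A (Ahsg) are likewise made chiefly in liver, where the factor HNF1 and CCAAT-binding factors act on many such promoters.

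The promoters of the Serpina1 genes are shown first to show how alike the genes are upstream of their starts. Promoter sequence is not part of the labelled RNA, so it says nothing of what a probe reads. RefSeq (assembly GRCm38.p6) places Serpina1f, Serpina1b, Serpina1d, Serpina1a, Serpina1c and Serpina1e in that order on chromosome 12, and the 5 genes other than Serpina1f were compared here. Over the 250 bases before each annotated start, the 10 pairings of these 5 genes were between 92.1% and 98.0% identical where they aligned. The stretch printed is 76 bases long and ends at or before the annotated start. Capitals mark GTTAAT, one arm of the HNF1 motif, and all 5 Serpina1 stretches are on the minus strand.

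Serpina1b, chr12:103738200-103738275: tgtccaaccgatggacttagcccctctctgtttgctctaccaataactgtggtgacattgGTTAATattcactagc
Serpina1d, chr12:103773634-103773709: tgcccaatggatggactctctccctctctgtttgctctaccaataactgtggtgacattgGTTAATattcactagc
Serpina1a, chr12:103863625-103863700: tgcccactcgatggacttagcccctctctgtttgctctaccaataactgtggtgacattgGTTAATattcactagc
Serpina1c, chr12:103904962-103905037: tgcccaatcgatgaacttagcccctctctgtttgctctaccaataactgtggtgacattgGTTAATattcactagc
Serpina1e, chr12:103956960-103957035: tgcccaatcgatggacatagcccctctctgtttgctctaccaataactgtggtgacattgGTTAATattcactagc
Alb, plus strand, chr5:90460778-90460853: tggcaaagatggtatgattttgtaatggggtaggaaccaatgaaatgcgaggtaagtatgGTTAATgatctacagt

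The last 55 bases were the same in all 5 Serpina1 genes. Over the 76 bases, Serpina1b differed from Serpina1a at 3 positions, Serpina1c and Serpina1e at 2 each, and Serpina1d at 6. The Alb stretch, from another chromosome, is aligned on the GTTAAT and is shown to set a plasma protein gene outside the family beside them. GTTAAT was searched on both strands and was found in 2112 of 32817 promoter windows of the same length (6.44%), and CCAAT in 11103 (33.8%). On the minus strand CCAAT shares 1 base with GTTAAT in the Serpina1 stretches and none in Alb. The Serpina1 and Alb windows held both, and the Ahsg and Apoa1 windows held neither. A match is a description of these letters only. Spi1-6 is an older symbol whose gene identifier is not in the RefSeq table, which lists that name as a synonym of Serpina1c, so no promoter was assigned to it. RefSeq also lists the name Serpina1a as a synonym of Serpina1d, although the identifiers of these probes led to Serpina1a and Serpina1d.

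Values are log2 ratios of double-null over apoE-null, so that 1 is a doubling, and a pair value is the mean of the 2 dye-swapped arrays of a pair. Arrays held 4581 to 7057 values, with medians between -0.094 and 0.0065, and signal over background was not analysed here. The limma fit called 38 of 4866 probes between the genotypes (0.781%), 29 positive and 9 negative. After averaging probes of a gene, 1793 of 4299 genes had a positive mean and 2506 a negative one. It called 231 probes for the dye orientation (4.75%), a measure that the choice of members did not use, and none of the 6 member probes in the fit was among them, although the dye difference of 2 of these, given below, was large in 1 pair. Labels number separate mice, so the spread is between mouse pairs. In whole tissue, fewer cells of a type and less RNA per cell cannot be told apart.

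Among the α1-antitrypsin genes, the Serpina1a probe had the highest mean ratio of the members in the fit. Its log2 ratios with double-null RNA in channel 1 and then in channel 2 were 1.81 and 0.39 in pair 1, 1.32 and 1.03 in pair 2, 0.73 and 0.58 in pair 3, 0.59 and 0.79 in pair 4, and 1.74 and 0.93 in pair 5. All 10 arrays were above 0, and the 2 arrays of pair 1 lay 1.42 apart. Pair values of 1.10, 1.17, 0.65, 0.69 and 1.34 gave a mean of 0.99 ± 0.30 (SD, n = 5 pairs), a 1.99-fold ratio. Pairs 1, 2 and 5 were above the mean and pairs 3 and 4 below it, so the male pairs 2 to 4 lay on both sides. With double-null RNA in channel 1 the mean was 1.24 and in channel 2 it was 0.75, a dye difference that limma did not call (adjusted p = 0.219).

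The Spi1-6 probe was also above 0 on all 10 arrays. Its log2 ratios, in the same order, were 1.12 and 0.84, 0.39 and 0.85, 0.81 and 0.74, 0.74 and 0.74, and 1.97 and 0.50. Pair 5 stands out, with 1.47 between its 2 arrays, and the partner arrays of pairs 3 and 4 were within 0.1 of each other. The pair values of 0.98, 0.62, 0.77, 0.74 and 1.24 had a mean of 0.87 ± 0.24 (SD, n = 5 pairs), a 1.83-fold ratio.

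Serpina1e lay above 0 on each of its 9 arrays, with log2 ratios of 0.55 and 0.86, 0.68 and 0.77, 0.99 and 0.87, and 0.84 and 0.60 in pairs 1 to 4. In pair 5 the array with double-null RNA in channel 1 read 0.44 and its partner was blank, so pair 5 gave no pair value. The 4 pair values of 0.70, 0.72, 0.93 and 0.72 were the most even of the members, with a mean of 0.77 ± 0.11 (SD, n = 4 pairs), a 1.70-fold ratio. For Serpina1a and Spi1-6 the partner arrays of a pair differed more than the median probe did. The root mean square (RMS) distance of partner arrays from their pair value was 0.375 for Serpina1a, against an SD between pairs of 0.303, and 0.35 for Spi1-6, against 0.242. Over the 3612 probes with 5 pair values the median distance was 0.199 and the median SD 0.30.

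**Figure D1:**
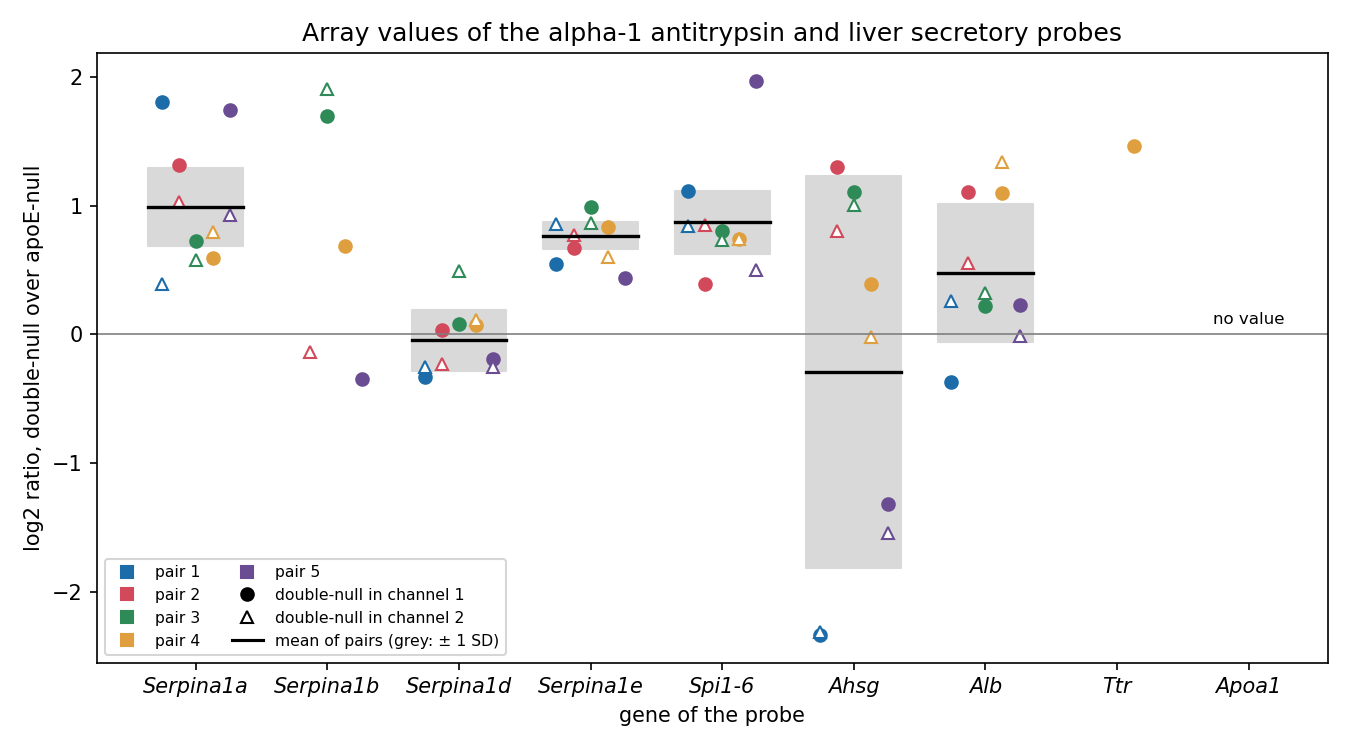
Log2 ratio (double-null over apoE-null, vertical axis) of each member probe (horizontal axis) on each array; colour is the mouse pair, filled circles have double-null RNA in channel 1, open triangles in channel 2, lines are means of pair values and grey boxes are ± 1 SD over 5 pairs (4 for Serpina1e). Serpina1a, Serpina1e and Spi1-6 are above 0 on every array with a value, Serpina1d lies around 0, and Ahsg spans from -2.34 to 1.30.

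Serpina1d, the family's other member in the fit, did not share these ratios. Its arrays read -0.34 and -0.26, 0.03 and -0.23, 0.08 and 0.50, 0.07 and 0.11, and -0.19 and -0.25 in pairs 1 to 5. They lay on both sides of 0, and the mean was -0.05 ± 0.24 (SD, n = 5 pairs). It was lower than Serpina1a in each pair, by 1.04 ± 0.52 on average (differences of 1.40, 1.27, 0.37, 0.60 and 1.56), and the smallest gap was in pair 3. Serpina1d minus Serpina1e was -0.77 ± 0.18 over 4 pairs and Serpina1d minus Spi1-6 was -0.92 ± 0.42 over 5 pairs, below 0 in every pair. These differences are descriptions, since the members were selected on this contrast.

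Serpina1b gave values on 5 arrays. They were 1.69 and 1.91 in pair 3, -0.14 on 1 array of pair 2, 0.68 on 1 of pair 4 and -0.34 on 1 of pair 5. Only pair 3 had both arrays, with a pair value of 1.8, and the sign differed between pairs. Of the cluster's genes outside the set by symbol, Serpina1c had values on 3 arrays (1.40 and 1.39 in pair 4 and 0.72 on 1 array of pair 5). Serpina1f was blank on all 10. RefSeq lists Spi1-6 as a synonym of Serpina1c, yet on those 3 arrays the Spi1-6 probe read 0.74, 0.74 and 1.97. Whether these 2 probes read the same gene was not tested.

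Beyond their means, the positive family members did not follow one another closely from array to array. Serpina1a minus Spi1-6 was 0.12 ± 0.26 over 5 pairs, with an RMS difference of 0.432 over the 10 arrays. Serpina1a minus Serpina1e was 0.14 ± 0.35 over 4 pairs, with an RMS of 0.686 over 9 arrays, and Serpina1e minus Spi1-6 was -0.01 ± 0.19, with an RMS of 0.562. The means thus differed by less than their spread, while the array patterns were further apart than the pattern of Serpina1a was from that of a globin probe. Files with probe or transcript sequences were not analysed here, so how far each probe reads its own gene was not tested.

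That globin probe is annotated as Hba-ps3, an α-globin pseudogene, and of 3293 other probes with 1 symbol and values on all arrays it was the nearest to Serpina1a. Hba-ps3 read 1.87 and 0.52, 1.14 and 1.12, 0.68 and 0.53, 0.56 and 0.73, and 1.57 and 0.87. Its RMS difference from Serpina1a was 0.103 over the 10 arrays and its largest difference on any array was 0.18, against a median RMS of 1.21 over all candidates. Its gap between the partner arrays of pair 1 was like that of Serpina1a. The gene of either probe is known here from the annotation only, and whether the probes share sequence or an annotation is in error was not tested. Isg20, an interferon-induced exonuclease gene, followed at an RMS of 0.441 and Glt8d2, a glycosyltransferase gene, at 0.526.

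The probe nearest to Spi1-6 was also Hba-ps3, at an RMS of 0.412, with Glt8d2 at 0.482 and Tenm3, a teneurin gene, at 0.504 (median 1.09). Serpina1d lay near probes with little change: Rbm14, an RNA-binding protein gene, at 0.131, Dkk3, a secreted Wnt modulator gene, at 0.146, and Pdpk1, a kinase gene, at 0.154 (median 0.451). The 10 arrays share 5 pairs of RNA extracts, so these distances rest on 5 mouse pairs.

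**Figure D2:**
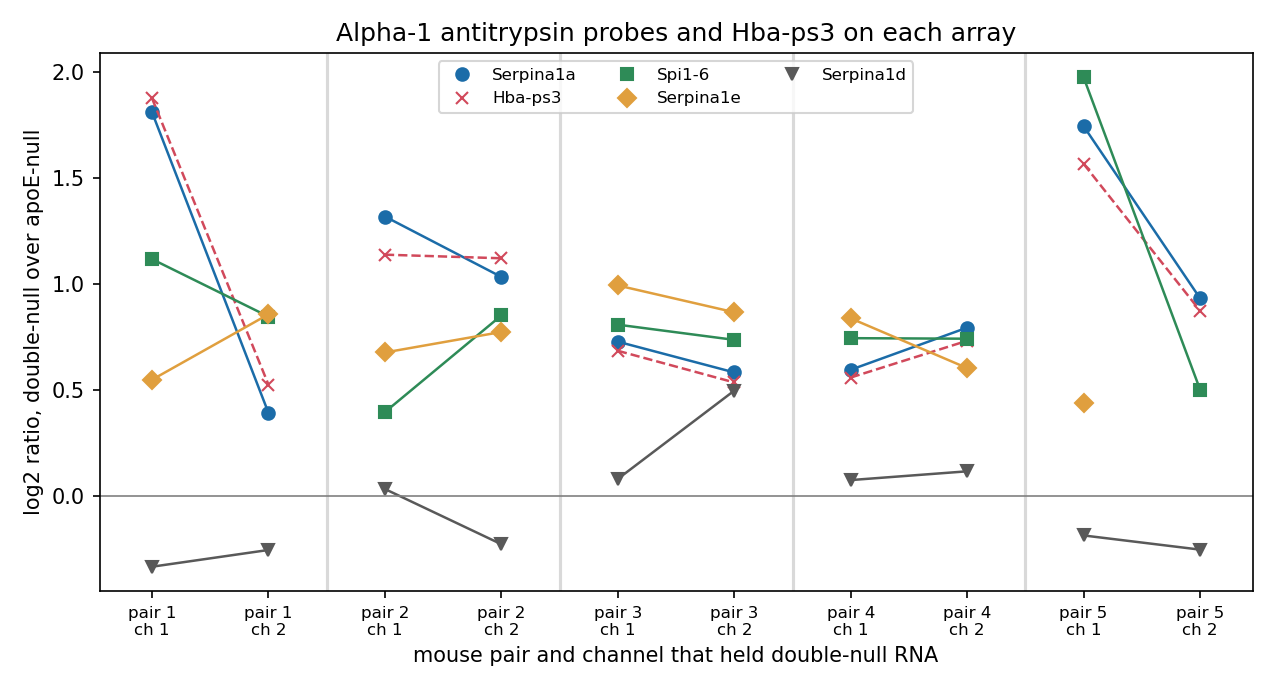
Log2 ratio (double-null over apoE-null, vertical axis) of 4 α1-antitrypsin probes and of Hba-ps3 on each of the 10 arrays (horizontal axis: mouse pair and the channel, ch, that held double-null RNA); lines join the 2 arrays of a pair. Hba-ps3 stays within 0.18 of Serpina1a on every array, and Serpina1d is below Serpina1a on every array.

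Because of that likeness, the genes of red blood cells and their precursors are given as values beside Serpina1a. Of 24 erythroid genes on the array 10 were measured, and 9 of these were positive. Their median was 0.709, against -0.0393 over all genes. It went to 0.47 without pair 5, 1.04 without pair 4 and 0.32 in the male pairs alone. Of the 10 genes 6 had an unadjusted limma p under 0.05, against 407 of all 4299 genes. The list medians in pairs 1 to 5 were 1.05, 0.37, 0.31, 0.29 and 1.17. Pairs 3 and 4 were the lowest in both the list and Serpina1a. The list medians of pairs 2, 3 and 4 lay close together, whereas Serpina1a had 1.17, 0.65 and 0.69 there. Not every gene of the list had a value in each pair. Hba-ps3 (0.96 ± 0.31, SD, n = 5 pairs) was the 1 gene of the list past the threshold, and it did not pass when any 1 pair was left out. As it is singled out here for its likeness to a probe selected on this contrast, its call is not independent evidence. Hbb-b2, a β-globin gene, had 1.07 ± 0.75 (adjusted p = 0.162), Alas2, the first enzyme of heme synthesis in red cells, 1.19 ± 0.78 (0.119) and Hba-a1, an α-globin gene, 0.46 ± 0.33 (0.316), each with n = 5 pairs. In pair 2 Hbb-b2 had 1.40, Hba-ps3 1.13 and Alas2 1.01. Hba-a1 had 0.37 in that pair, and the rest of the list with a value there lay lower. Over the 10 arrays the RMS difference from Serpina1a was 0.721 for Hba-a1 and 0.611 for Hbb-b2, against 0.103 for Hba-ps3. Hba-ps3 itself lay 0.651 from Hba-a1 and 0.55 from Hbb-b2, so these globin probes were not near either pattern. Per the labels, aortas were perfused with a preservative before dissection. The part of blood RNA in the Serpina1a ratio was not tested.

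Among the other plasma proteins, Alb was mostly positive but uneven between pairs. Its arrays read -0.37 and 0.26 in pair 1, 1.11 and 0.55 in pair 2, 0.22 and 0.32 in pair 3, 1.10 and 1.34 in pair 4, and 0.23 and -0.01 in pair 5. Values were above 0 on 8 of 10 arrays, and pairs 2 and 4, both male, were well above the rest. The pair values of -0.05, 0.83, 0.27, 1.22 and 0.11 had a mean of 0.48 ± 0.53 (SD, n = 5 pairs), a 1.39-fold ratio that was smaller than its SD. The male pairs alone had a mean of 0.78. Its nearest probes were 6030458C11Rik, Cma1, a mast cell chymase gene, and Anapc1, a ubiquitin ligase subunit gene, at RMS differences of 0.441, 0.473 and 0.482 (median 0.845).

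Ahsg, whose product fetuin-A binds calcium phosphate and limits mineral deposits in soft tissue, had the widest range of the members. Its arrays read -2.34 and -2.32 in pair 1, 1.30 and 0.80 in pair 2, 1.10 and 1.01 in pair 3, 0.39 and -0.02 in pair 4, and -1.32 and -1.54 in pair 5. Partner arrays of each pair were close while pairs disagreed: pair values were -2.33, 1.05, 1.06, 0.19 and -1.43. The mean of -0.29 ± 1.52 (SD, n = 5 pairs) therefore describes no pair, and it turned to 0.22 without pair 1. The SD between pairs of 1.523 ranked 16 of the 3612 probes with 5 pair values, and was 9.86 times the RMS distance of partner arrays from their pair value, 0.1545. For the median probe that ratio was 1.5, for Alb it was 2.62 and for Serpina1a 0.808.

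Both pairs with a negative Ahsg value had a female apoE-null mouse, and the 3 positive pairs were the male ones. With 1 female pair and 1 pair of unlike sex, sex and the individual mouse cannot be told apart. The probes nearest to Ahsg over the 10 arrays were Adamtsl2, a secreted matrix glycoprotein gene, Fibin, a secreted factor gene, and Mt2, a metallothionein gene induced by stress hormones and metals, at RMS differences of 0.575, 0.696 and 0.711 (median 1.42). Pair values were -1.49, 0.32, 0.71, 0.38 and -1.74 for Adamtsl2. They were -2.58, 0.65, 0.69, 0.65 and -2.51 for Mt2. Both had the signs of Ahsg in every pair, as had Fibin, with -1.49, 0.41, 1.14, 0.72 and -0.45.

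**Figure D3:**
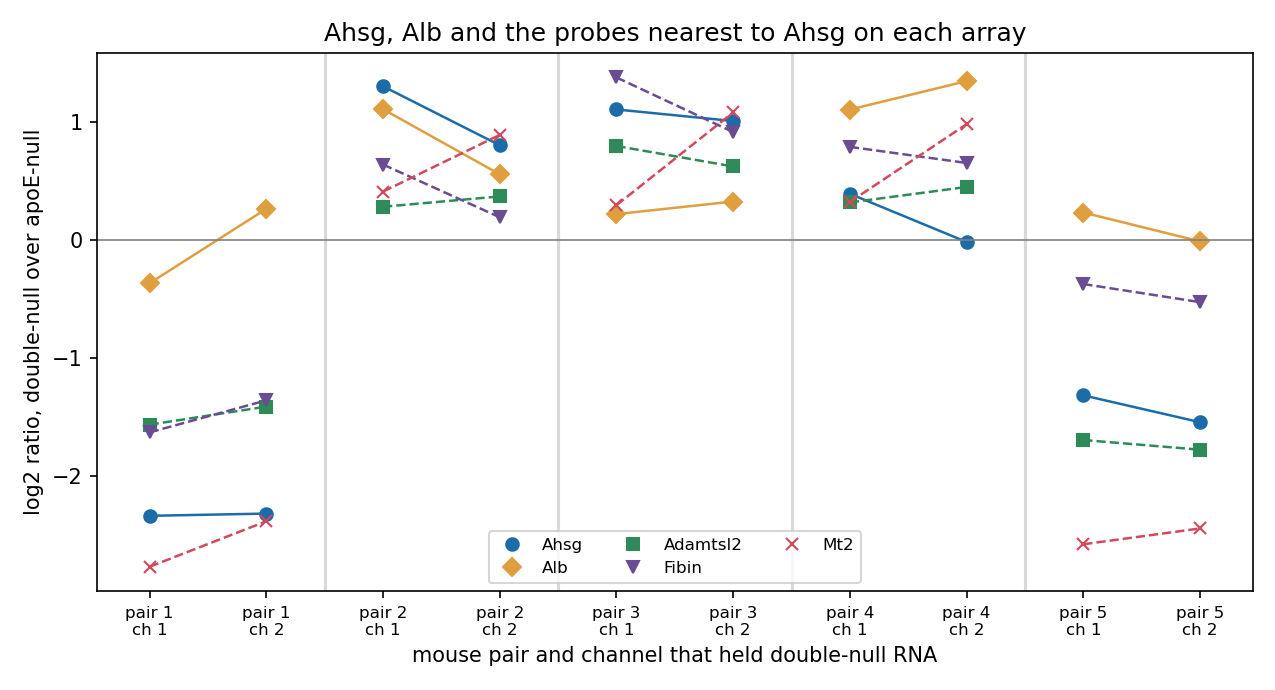
Log2 ratio (double-null over apoE-null, vertical axis) of Ahsg, Alb and the 3 probes nearest to Ahsg on each of the 10 arrays (horizontal axis: mouse pair and the channel, ch, that held double-null RNA); lines join the 2 arrays of a pair. Ahsg, Adamtsl2, Fibin and Mt2 are below 0 on the arrays of pairs 1 and 5, where Alb lies between -0.37 and 0.26.

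Ttr, which carries thyroxine and retinol-binding protein, had a value on 1 array only, 1.47 in pair 4 with double-null RNA in channel 1. Apoa1, the main protein of high-density lipoprotein, was blank on all 10. The sources used here do not say why cells were left blank, and these 2 genes have no pair value.

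Ordered by mean, the 6 members in the fit were Serpina1a, Spi1-6, Serpina1e, Alb, Serpina1d and Ahsg. Steps between neighbours were 0.12, 0.10, 0.29, 0.52 and 0.25, and each was within 1 SD of the pair values of at least 1 of the neighbours. These steps compare means and do not use the pairing. Pair by pair, Serpina1d minus Alb was -0.52 ± 0.48 (SD) and above 0 in 1 of 5 pairs. The fit over all probes placed 3 of the 6 past adjusted p under 0.05, against 0.781% of all probes. This is no test of the members, which were chosen on that contrast, and nothing is read from the count. It was 0 when any 1 pair was left out. Leaving out probes called for dye also took it to 0, although no member was among those probes. The values and unadjusted p of the members stayed the same in that setting, and only the adjustment was redone.

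The other plasma protein genes, 93 in the list, had a median near 0. Of the 75 on the array 16 were measured in at least 3 pairs (21.3%, against 38.6% of all 11130 genes), with 9 positive, 7 negative and a median of 0.078. That median went to 0.016 without pair 2 and 0.015 without pair 3. limma called 1 of the 16, against 0.814% of 4299 genes (27 positive and 8 negative). That gene was F10, coagulation factor X, with 0.96 ± 0.42 (SD, n = 5 pairs, adjusted p = 0.0473). Its sign depended on the dye: the mean was -1.04 with double-null RNA in channel 1 and 2.95 in channel 2 (dye adjusted p = 1.95e-07), and its adjusted p was 0.0781 to 0.241 without pair 2, 3, 4 or 5.

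The other named plasma protein genes did not pass. Afp, the fetal counterpart of albumin, had -0.38 ± 0.30 (n = 5 pairs, limma adjusted p = 0.443) and a dye effect (adjusted p = 0.00779). Kng1, the kininogen gene, had 0.81 ± 1.06 (n = 4 pairs, adjusted p = 0.531) and Itih2, a hyaluronan-binding inhibitor gene, -0.26 ± 0.29 (n = 5 pairs, adjusted p = 0.561). Some varied widely between pairs, as Ahsg did. Orm1, an acute-phase glycoprotein gene, had pair values of 2.40, -0.06, -1.22, 0.94 and 0.98. Cp, the ferroxidase ceruloplasmin, had -1.48, 0.21, 0.09, 0.08 and -1.0, below 0 in the same pairs as Ahsg. These 2 were chosen after their values were seen.

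Other serpins gave no call. All 7 measured of 22 on the array were negative, as were 2506 of all 4299 genes. Their median of -0.121 went to -0.077 without pair 1. Of the 7, 1 had an unadjusted limma p under 0.05, against 407 of all 4299 genes. Serpina3n, an acute-phase inhibitor of neutrophil proteases, had -1.19 ± 0.86 (n = 3 pairs, limma adjusted p = 0.276), with pair values of -2.12, -0.43 and -1.03. Serpinh1, the collagen chaperone Hsp47, had -0.19 ± 0.13 (adjusted p = 0.582), Serpinf1, which encodes PEDF, -0.17 ± 0.32 (0.676) and Serpinb9, the granzyme B inhibitor, -0.10 ± 0.37 (0.823), each with n = 5 pairs. Of 16 genes on the array for proteases linked to α1-antitrypsin, 3 were measured and none passed. Mmp12, the macrophage elastase that inactivates α1-antitrypsin, had -0.42 ± 0.77 (adjusted p = 0.601), Cela1, a pancreatic-type elastase, 0.12 ± 0.45 (0.8) and Plau, urokinase, 0.09 ± 0.43 (0.863), each with n = 5 pairs. The gene of neutrophil elastase, Elane, had values on 2 arrays, and the neutrophil protease gene Ctsg was blank on all 10.

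Genes for folding and export of secreted proteins did not pass either. Of 29 measured, 6 were positive and 23 negative, with a median of -0.134 that went to -0.044 without pair 1. Pdia4, a disulfide isomerase of the endoplasmic reticulum, had 0.50 ± 0.41 (limma adjusted p = 0.341). Calr, the lectin chaperone calreticulin, had -0.22 ± 0.18 (adjusted p = 0.557), Mcfd2, part of the export receptor for coagulation factors, -0.27 ± 0.30 (0.558) and Prkcsh, a glucosidase subunit, -0.24 ± 0.27 (0.579), each with n = 5 pairs.

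The tissue was checked against markers of the aorta and of cells it could hold. The smooth muscle genes Acta2, Myh11, Tagln, Cnn1 and Eln and the endothelial genes Pecam1 and Kdr had values on all 10 arrays, while Des and Mmrn1 had none. The smooth muscle median was -0.141 over 9 genes, with no gene called, and pair medians were -0.50, -0.22, 0.32, -0.016 and -0.39. It went to -0.043 without pair 1, -0.086 without pair 2, -0.077 without pair 5 and -0.31 without pair 3, and was 0.099 in the male pairs alone. The endothelial median was 0.047 over 8 genes, with no gene called. It turned to -0.014 without pair 2 and -0.016 without pair 4, and went to 0.090 without pair 1. The contractile genes with the smallest p were Actg2 (-0.32 ± 0.43, n = 5 pairs, limma adjusted p = 0.558) and Smtn (-0.23 ± 0.28, n = 5 pairs, adjusted p = 0.581). Cldn5, a tight junction gene of endothelium, had 0.28 ± 0.22 (n = 5 pairs, limma adjusted p = 0.521).

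Hepatocyte genes that are not secreted were largely blank. Of 54 such probes 31 were blank on all arrays (57.4%, against 41.9% of all probes and 52.5% of the other plasma protein probes). Those of Otc, Cyp3a11, Cyp7a1 and Asgr1 were among the blank ones. Cyp2e1 and Pck1 had values on all 10 arrays, with SDs between pairs of 1.73 and 1.39. Hnf4a, a master regulator of hepatocytes, had values on 2 arrays and Fabp1 on 1. Of 48 genes on the array 7 were measured, 4 positive and 3 negative, with a median of 0.012 and pair medians of -0.58, -0.05, 0.50, 0.08 and -0.14. The median was between -0.06 and 0.16 when 1 pair was left out, and below 0 without pair 2 or pair 4. None passed: Slc10a1, the bile acid importer, had -0.31 ± 0.32 (limma adjusted p = 0.531), Cyp2d10, a cytochrome P450, 0.30 ± 0.35 (0.54), Ass1, a urea cycle enzyme, 0.18 ± 0.39 (0.686) and Nr1i3, a xenobiotic receptor, -0.17 ± 0.61 (0.771), each with n = 5 pairs.

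Markers of macrophages were mostly negative, and those of fat varied between pairs. Of 26 macrophage and neutrophil genes 20 were negative, with a median of -0.382 and no call. Of these genes 11 had an unadjusted limma p under 0.05, against 407 of all 4299 genes. Pair medians were -0.99, -0.30, -0.59, -0.34 and 0.20, so pair 5 was positive, and without it the median was -0.63. The neutrophil genes Ngp (0.24 ± 0.22, n = 3 pairs), S100a9 (0.34 ± 0.60, n = 3), Mpo (0.17 ± 0.365, n = 5) and S100a8 (0.05 ± 0.50, n = 5) were among the 6 positive ones. The 4 genes with the smallest p were Lyz2 (-0.81 ± 0.54, n = 5 pairs, limma adjusted p = 0.168), Clec4n (-0.89 ± 0.54, n = 4, 0.175), Lyz1 (-0.83 ± 0.60, n = 5, 0.188) and C1qa (-0.87 ± 0.41, n = 3, 0.195). White fat genes had pair medians of 1.8, -0.17, -0.41, 0.97 and -0.34 and brown fat genes 2.23, 0.19, -0.49, 1.48 and 0.05. Of white fat genes Lpl, lipoprotein lipase, had the smallest p and was the only negative one of 16 (-0.42 ± 0.58, n = 5 pairs, limma adjusted p = 0.541). Angptl4, an inhibitor of that lipase, had 0.54 ± 0.74 (n = 4 pairs, adjusted p = 0.546), Scd1, a fatty acid desaturase, 0.72 ± 1.19 (n = 5 pairs, 0.573) and Adipoq, the adiponectin gene, 0.65 ± 1.19 (n = 5 pairs, 0.589). Fabp3, a fatty acid binding protein gene of brown fat and heart, had 0.79 ± 0.96 (n = 5 pairs, limma adjusted p = 0.493). Without pair 1 the white fat median of 0.42 over 16 genes went to 0.031, and the brown fat median of 0.589 over 7 genes to 0.21. The part of leukocytes or fat in the member ratios was not tested.

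**Figure D4:**
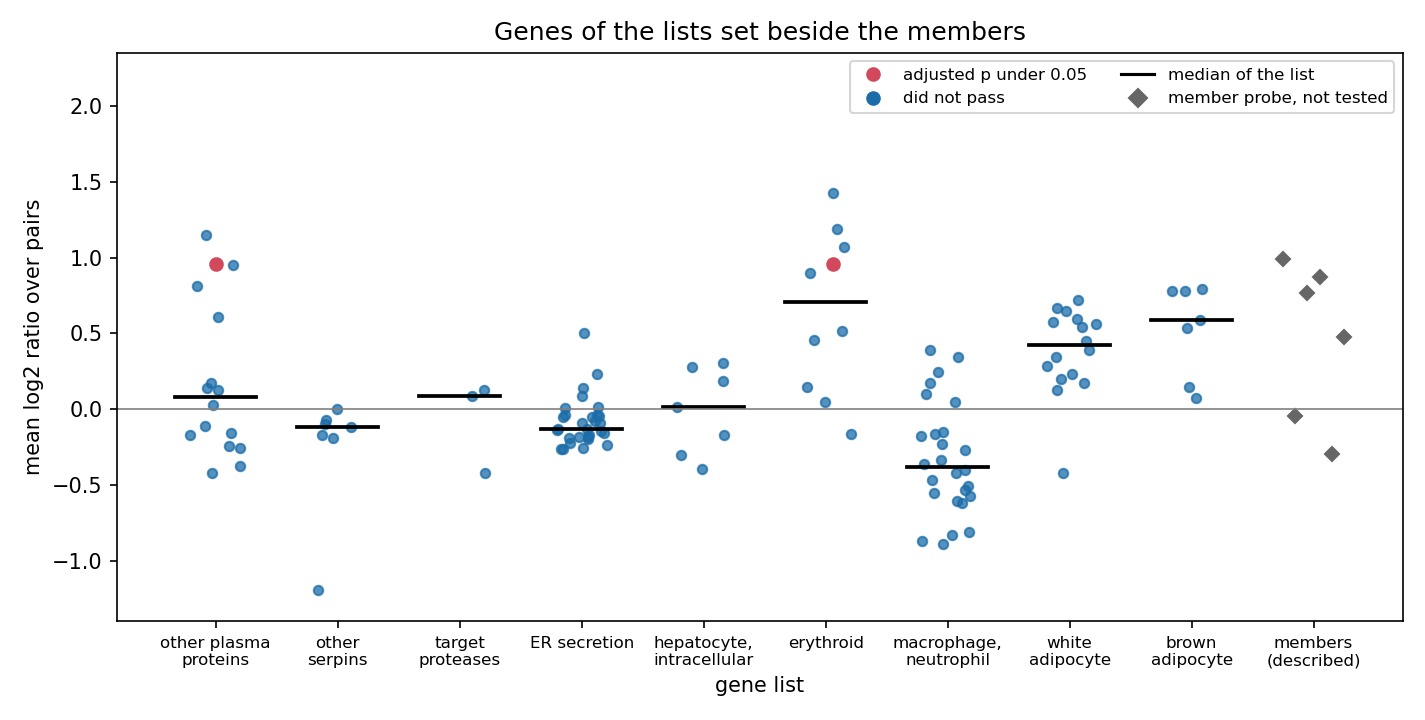
Mean log2 ratio over pairs (double-null over apoE-null, vertical axis) of each measured gene of 9 lists (horizontal axis) and of the 6 member probes in the fit; black lines are list medians, red points have a limma adjusted p under 0.05 over 4299 genes. One plasma protein gene, F10, and 1 erythroid gene, Hba-ps3, singled out for its likeness to Serpina1a, are red; the erythroid median is 0.709, and those of other plasma proteins and other serpins are 0.078 and -0.121.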

How the data were processed

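Aortic arch RNA of 5 mouse pairs was compared on 10 two-colour arrays. The labels record T7 amplification, chemical labelling, a GenePix scanner and analysis in GeneSpring. The authors deposited log2 ratios of apoE-null over double-null, per the titles; how values were normalized or left blank is not given in the labels used here. The lowest value, -6.644, occurs 10 times on 5 arrays and is taken as a floor at a ratio of 0.01, which sets the log base. No column was left unused.

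Signs were turned to double-null over apoE-null. The dye-swapped arrays of 1 pair share their RNA and count as 1 replicate, their mean; values on both arrays were required, and at least 3 pairs per probe (3612 probes had 5, 838 had 4 and 416 had 3). Probes were tested against 0, two-sided, with limma 3.58.1 (lmFit, eBayes) in R 4.3.3 and Benjamini-Hochberg adjustment over all probes, or over 4299 genes after averaging probes of a gene; the threshold was 0.05. The dye effect was tested likewise on the difference between orientations divided by 2. The fit was tested on simulated data. Promoters were aligned with Biopython 1.88, in place of a planned protein comparison, since protein sequences were not used here. Probe symbols came from the platform annotation, updated through RefSeq: 12143 probes had 1 symbol, 49 several and 1680 none; 12009 matched and 134 kept the older name. The array files name no genome build; coordinates are RefSeq's.

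Members and lists were chosen with earlier results of these data known. Named genes are the members, the 3 probes nearest by RMS difference to each member with values on all arrays, and up to 4 genes of each list with the smallest p. Others (Orm1, Cp, Mup2, Mup5, Ngp, S100a9, Mpo, S100a8, Serpina1c, Serpina1f, Elane, Ctsg and markers named for being measured or blank) were chosen after their values were seen. Pairing comes from the labels: the same mice appear on both arrays of a pair. Alternatives were leaving out each pair, single orientations, array-level fits with and without a replicate block, other filters, centring, scaling, floor removal, robust eBayes and male pairs alone; leaving out probes with a dye effect, and all settings for the count of member probes called, were added after the data were seen.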

Additional observations from a re-analysis of the deposited data

Results flagged for a closer look

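The pair value of Serpina1e in pair 3, 0.9286, stood far from those of the other 3 pairs, 0.7013 to 0.7239; the gap was 0.9 of the whole range. It was 1 such sample in 30 groups examined, and chance gives about 1 in 20.

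Among the members in the fit and the medians of the lists, which were the only values examined for this, the female pair and all 3 male pairs had opposite signs in 3 cases. These differences were not tested, and there was 1 female pair. Single genes outside the members were not searched, and some named in the report, such as Cp and Mt2, had the same split. Ahsg had -2.327 in the female pair and 0.1859 to 1.055 in the male pairs. Alb had -0.05189 in the female pair, where its 2 arrays themselves had opposite signs, and 0.2712 to 1.224 in the male pairs. The median of the endothelial genes was -0.0986 in the female pair and 0.0476 to 0.17 in the male pairs.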

How the results depend on the processing

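The count of 38 probes called between genotypes was 0 to 25 when 1 pair was left out, 59 and 119 with the channel 1 or the channel 2 orientation alone, 73 in an array-level fit with a replicate block for the pair, 157 with no replicate block and 4 with dye-effect probes left out. The count of 231 probes called for dye was 110 to 222 without 1 pair, 85 in the male pairs alone and 109 with no replicate block. The count of 1 plasma protein gene called was 0 to 1 without 1 pair, and 0 with channel 1 alone, with 1 array enough for a pair, with 2 pairs enough, with scaled arrays and with dye-effect probes left out. The count of 3 member probes called was 0 without any 1 pair and with dye-effect probes left out, and 1 with channel 1 alone; the replicate block left it at 3. With channel 2 alone the median of other plasma protein genes was 0.21 and that of other serpins -0.23. Member means stayed within 1 SD of their value: 0.75 to 1.24 for Serpina1a, 0.70 to 0.80 for Serpina1e, 0.71 to 1.01 for Spi1-6, -0.13 to 0.09 for Serpina1d, -0.63 to 0.76 for Ahsg and 0.29 to 0.78 for Alb, and the sign of Ahsg and Serpina1d changed within that range. Leaving out dye-effect probes changed the adjusted p of the probes kept and not their unadjusted p. The cause of the other changes was not tested. In the male pairs alone 55 probes were called between genotypes, and 2 of them were member probes. With 5 pairs and many blank cells, the number of arrays limits the precision.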
